A study of Mus musculus with 12 samples.

Results

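The CDK inhibitors, D-type cyclins and their kinase partners were followed in embryonic mouse cortex through 10 genes: the inhibitors Cdkn1a, Cdkn1b, Cdkn1c, Cdkn2c and Cdkn2d, the cyclins Ccnd1, Ccnd2 and Ccnd3, and the kinases Cdk4 and Cdk6. The members were all probe sets that the platform annotation assigns to one of these genes alone, which gave 26 of the 34958 probe sets that name 1 gene (10 of 18194 genes). Of these, 25 passed the filter on low signal, and every one of the 10 genes kept at least 1 probe set. The exception was a Ccnd3 probe set (1438805_at), which read between 0.17 and 4.15 on the log2 scale and stayed below the limit of 5.21 on all 12 arrays.

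The study compared cortex of AP2gamma knockout embryos (KO) with cortex of wild-type embryos (WT) at embryonic day 14, in a caudal and a rostral piece. The transcription factor AP2gamma is the product of Tfap2c. The 4 groups were caudal KO (animals 1, 2 and 13), caudal WT (animals 4, 6 and 14), rostral KO (animals 7, 8 and 15) and rostral WT (animals 10, 12 and 16), with 1 array per animal number. The labels do not state the knockout allele, any Cre driver, the strain or whether embryos were pooled. They also do not state whether a caudal and a rostral piece came from the same embryo. Values are the deposited log2 signals, used without further normalisation.

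D-type cyclins bind the kinases CDK4 and CDK6 in the G1 phase, and the complexes phosphorylate the retinoblastoma protein, which releases E2F factors and lets a cell enter S phase. Inhibitors of the INK4 family (here p18 from Cdkn2c and p19 from Cdkn2d) bind CDK4 and CDK6 themselves, while those of the CIP/KIP family (p21 from Cdkn1a, p27 from Cdkn1b and p57 from Cdkn1c) bind cyclin-CDK complexes, mainly those of CDK2. In the developing cortex the balance of these proteins is known to set the length of G1 in radial glia and basal progenitors and to bear on whether a daughter cell divides again or leaves the cycle as a neuron.

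Promoter sequence is shown for the genes that hold a motif of interest here: that of AP2 factors because an AP2 factor was the target of the knockout, that of p53 because Cdkn1a is its best known target in this set, and the E-box because MYC acts on Cdk4 and Myc itself differed between the regions (below). The RefSeq table (GRCm38.p6) held 10 start windows for 7 of the 10 genes and none for Cdkn1c, Ccnd1 and Ccnd2. The 250 bases before each start were searched on both strands for 3 motifs, each of which reads the same on both strands. The AP2 motif was GCCNNNGGC, the E-box was CACGTG, and the spaced core of a p53 site was CATG, 6 bases of any kind, and CATG again. Capitals mark the motif, and all sequences run 5′ to 3′ on the strand of the gene.
Cdkn1b, AP2 motif beginning 96 bases before the start, plus strand, chr6:134920151-134920400: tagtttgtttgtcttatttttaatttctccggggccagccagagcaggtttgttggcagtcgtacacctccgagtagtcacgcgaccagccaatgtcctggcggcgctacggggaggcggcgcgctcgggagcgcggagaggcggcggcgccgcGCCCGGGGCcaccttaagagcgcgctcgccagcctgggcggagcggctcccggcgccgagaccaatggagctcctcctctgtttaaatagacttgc
Cdkn2d, AP2 motif beginning 111 bases before the start, minus strand, chr9:21291301-21291330: tctgggcgggGCCTGGGGCgggcttgcctc
Cdkn1a, spaced CATG pair beginning 48 bases before the start, plus strand, chr17:29090729-29090978: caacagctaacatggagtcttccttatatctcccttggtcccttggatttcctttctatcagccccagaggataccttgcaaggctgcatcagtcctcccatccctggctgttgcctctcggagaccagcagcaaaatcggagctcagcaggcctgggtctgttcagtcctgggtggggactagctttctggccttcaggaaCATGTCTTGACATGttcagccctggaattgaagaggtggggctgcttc
Cdk4, E-boxes beginning 172, 118, 98 and 11 bases before the start, plus strand, chr10:127063285-127063534: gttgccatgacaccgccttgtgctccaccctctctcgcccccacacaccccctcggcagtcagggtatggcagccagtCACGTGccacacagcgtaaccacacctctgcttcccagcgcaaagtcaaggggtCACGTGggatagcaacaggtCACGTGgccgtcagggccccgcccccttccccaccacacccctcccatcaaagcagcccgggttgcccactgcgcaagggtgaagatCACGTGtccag
Cdk6, E-box beginning 220 bases before the start, plus strand, chr5:3343661-3343690: gttctgcggcccCACGTGggtgaacccccg
The start windows of Cdkn2d and Cdk6 do not lie at the outermost annotated start of their genes. For both only 30 bases around the motif are given. Cdkn1a had a second start window, at chr17:29093519-29093768, which held none of the 3 motifs. The AP2 motif was found in 2 of the 10 windows of these genes and in 13.7% of all 32851 windows, the E-box in 2 of 10 and 6.02%, and the spaced CATG pair in 1 of 10 and 0.49%. These matches describe letters only and do not show that a factor binds there. The E-box was chosen with the Myc result known. The genes that hold it, Cdk4 and Cdk6, did not pass between regions (-0.12 ± 0.08 and -0.03 ± 0.19, caudal minus rostral, averaged over genotypes).

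The arrays were alike in overall signal, with medians between 5.21 and 5.22 and upper quartiles between 7.54 and 7.56. Tfap2c was lower in KO cortex, with -1.22 ± 0.19 (SE) in the caudal piece (limma adjusted p = 0.084) and -0.59 ± 0.19 in the rostral piece (adjusted p = 0.63). It passed only in the average of both regions (-0.91 ± 0.14, limma adjusted p = 0.038). Signal remained in KO, where the arrays read 7.44 to 8.63, above the filter limit of 5.21, against 8.54 to 9.19 in WT. Xist was high in caudal WT 6 (11.32) and rostral WT 12 (11.89) and at or below 5.48 on the other 10 arrays, so both Xist-high arrays were WT. Markers of the ganglionic eminence, which lies below the cortex, had a higher mean on every rostral array than on every caudal array, and markers of the meninges stood apart on rostral KO 15. Markers of the choroid plexus had their highest mean on caudal WT 6. Their values are given beside the results they touch.

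**Figure D1:**
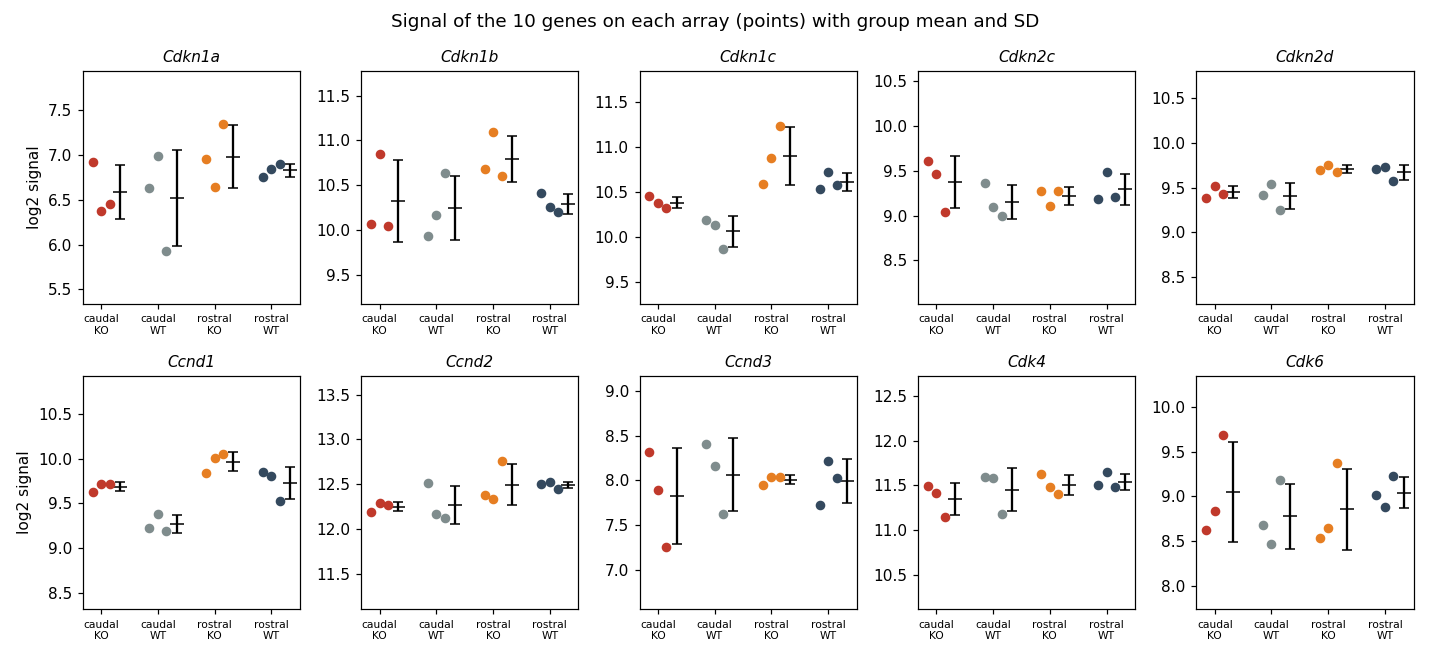
Log2 signal (vertical axis, the same span in all panels) of the probe set that stands for each of the 10 genes, 1 point per array in order of animal number, with the group mean and SD as bars. Within each genotype Cdkn1c, Ccnd1 and Cdkn2d lie lower in the caudal than in the rostral group, and the caudal KO points of Cdkn1c and Ccnd1 lie above those of caudal WT.

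None of the 10 genes passed the threshold between KO and WT cortex. The cyclin gene Ccnd1 and the inhibitor gene Cdkn1c had the largest effects relative to their error, and both were higher in KO cortex, by 1.25-fold and 1.24-fold averaged over the regions. A promoter and an inhibitor of G1 progression thus had estimates of the same sign, neither of which passed. The median KO effect of the 10 genes was 0.06 on the log2 scale, against -0.01 over all 11785 genes tested, with 7 of the 10 above 0.

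Ccnd1, whose forced expression with Cdk4 is known to shorten G1 in cortical progenitors, read 9.63, 9.71 and 9.71 in caudal KO 1, 2 and 13, against 9.23, 9.38 and 9.19 in caudal WT 4, 6 and 14. In rostral cortex it read 9.84, 10.01 and 10.05 in KO 7, 8 and 15, against 9.85, 9.81 and 9.53 in WT 10, 12 and 16. All 3 caudal KO arrays lay above all 3 caudal WT arrays, while the rostral groups overlapped through KO 7, which lay below WT 10. The KO effect was 0.42 ± 0.10 (SE) in caudal cortex (limma adjusted p = 0.69), 0.24 ± 0.10 in rostral cortex (adjusted p = 0.70) and 0.33 ± 0.07 averaged over both (95% interval 0.17 to 0.48, adjusted p = 0.21). The unadjusted p of the average was 0.00052. Without rostral WT 16, the lowest of its group, the rostral effect was 0.14 ± 0.10 (adjusted p = 0.94). Taken within sets of animals, the caudal KO effect was 0.36 among animals numbered up to 12 and 0.52 between animals 13 and 14, and the rostral effect was 0.10 among the lower numbers and 0.52 between animals 15 and 16.

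The other probe sets of Ccnd1 pointed the same way. Averaged over regions they differed by 0.34 ± 0.14 (1417419_at) and 0.39 ± 0.11 (1448698_at), with adjusted p = 0.67 and 0.52 in the fit of all probe sets. On 1448698_at the caudal KO arrays read 9.48, 9.83 and 9.73, against 8.80, 9.48 and 9.38 in caudal WT. Its rostral KO arrays read 9.66, 9.85 and 9.82, against 9.43, 9.64 and 9.33 in rostral WT. On this probe set it was the rostral groups that did not overlap, and the caudal groups that touched. Probe sets of 1 gene share the RNA of the same arrays and are not independent measurements.

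Cdkn1c, an imprinted gene whose product p57 favours exit from the cell cycle, read 10.45, 10.37 and 10.32 in caudal KO, against 10.19, 10.13 and 9.87 in caudal WT. In rostral cortex it read 10.59, 10.88 and 11.24 in KO, against 10.53, 10.72 and 10.57 in WT. The caudal groups did not overlap, and the rostral groups overlapped, since KO 7 lay below WT 12. The KO effect was 0.32 ± 0.14 in caudal cortex (limma adjusted p = 0.998), 0.30 ± 0.14 in rostral cortex (adjusted p = 0.74) and 0.31 ± 0.10 averaged over both (95% interval 0.10 to 0.52, adjusted p = 0.45). Rostral KO 15, the array of the highest value, also had the highest mean over 7 meningeal and mesenchymal genes, 8.64 against 5.95 to 6.69 on the other 11 arrays, and the highest mean of the ganglionic eminence genes (7.99). Without it the rostral KO effect of Cdkn1c was 0.13 ± 0.12 (adjusted p = 0.95). The part of these tissues in this result was not tested.

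Cdkn1b encodes p27, which rises as cortical cells leave the cycle, and its 3 rostral KO arrays lay above all 3 rostral WT arrays. The rostral values were 10.68, 11.09 and 10.61 for KO, against 10.42, 10.26 and 10.20 for WT (0.50 ± 0.21, adjusted p = 0.70). In the caudal piece the values were 10.07, 10.85 and 10.05 in KO, against 9.94, 10.17 and 10.64 in WT. The caudal groups overlapped (0.07 ± 0.21). The difference between the caudal and the rostral KO effect was -0.43 ± 0.30 and did not pass (limma adjusted p = 0.999). Its second probe set, with means between 5.65 and 6.02, differed by 0.13 ± 0.19 averaged over regions.

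The INK4 genes did not pass. Cdkn2d, whose product p19 helps to keep neurons out of the cycle, differed by 0.04 ± 0.06 averaged over regions (95% interval -0.10 to 0.18), the narrowest interval of the 10 genes. Cdkn2c had effects of opposite sign, 0.22 ± 0.15 caudally and -0.07 ± 0.15 rostrally, whose difference did not pass (0.30 ± 0.21). Cdkn1a, which encodes p21, differed by 0.11 ± 0.18 on its brighter probe set, with 6.93, 6.37 and 6.45 in caudal KO against 6.63, 6.99 and 5.93 in caudal WT. Its second probe set gave -1.40 ± 0.70 and lay at or below 5.21 on all 3 rostral KO arrays and on some arrays of 2 further groups, so its fold is not used.

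Ccnd2 encodes a D-type cyclin whose transcript is known to be carried into the basal endfeet of radial glia. On the probe set that stands for it, it read 12.20, 12.29 and 12.27 in caudal KO, against 12.51, 12.17 and 12.13 in caudal WT. In rostral cortex it read 12.38, 12.34 and 12.75 in KO, against 12.50, 12.52 and 12.45 in WT. The averaged effect was -0.01 ± 0.08, and its 95% interval ran from -0.17 to 0.16. The 7 probe sets of the gene ranged from -0.06 to 0.21. Ccnd3 differed by -0.11 ± 0.17, with a wide spread in the caudal groups. Its caudal KO arrays read 8.32, 7.90 and 7.26 against 8.41, 8.16 and 7.62 in caudal WT. A second tested Ccnd3 probe set, 1444323_at, gave 0.41 ± 0.38 averaged over regions, with all caudal WT arrays at or below 5.21.

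Neither kinase gene passed. Cdk4 differed by -0.07 ± 0.08 averaged over regions (95% interval -0.25 to 0.11), and its 3 probe sets by -0.15 to -0.04. On one of them, 1422440_at, the rostral KO values of 11.24, 11.11 and 11.11 lay below the rostral WT values of 11.29, 11.56 and 11.30 without passing (-0.23, adjusted p = 0.75). Cdk6 differed by 0.04 ± 0.19. It varied more between arrays of 1 group than between the groups, with 8.63, 8.84 and 9.69 in caudal KO against 8.68, 8.47 and 9.18 in caudal WT, and rostrally 8.54, 8.65 and 9.38 for KO against 9.02, 8.88 and 9.23 for WT. In each of the 4 groups the highest Cdk6 value was that of the animal with the highest number, 13, 14, 15 or 16.

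**Figure D2:**
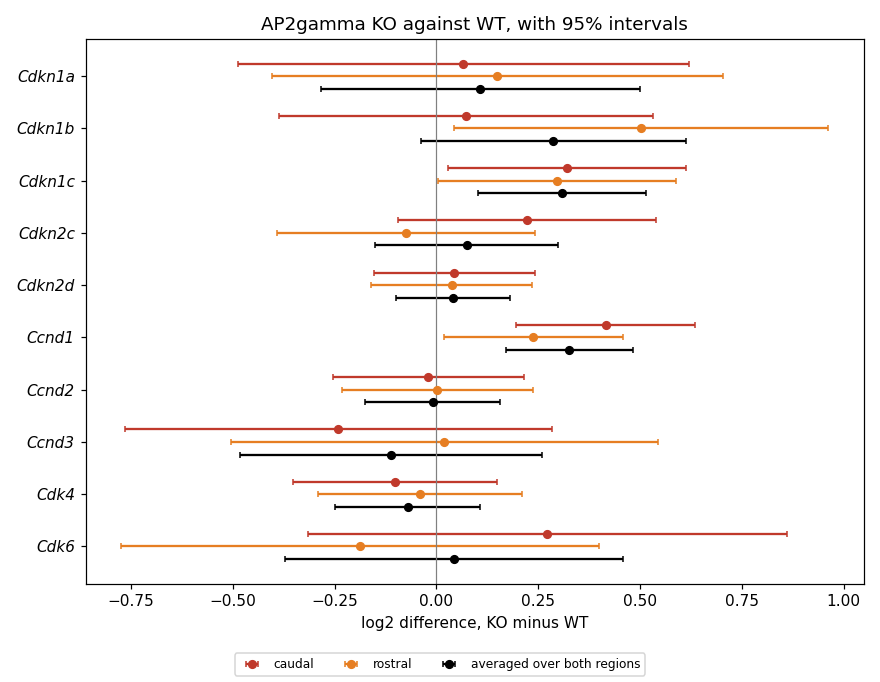
Log2 difference of KO minus WT (horizontal axis) for each of the 10 genes, by region and as the average of the regions, with 95% intervals from the limma fit. The averaged intervals of Ccnd1 (0.17 to 0.48) and Cdkn1c (0.10 to 0.52) lie above 0, and those of Cdkn2d and Ccnd2 are narrow around 0. Intervals are not adjusted for the number of genes.

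Set against all genes, the members' counts were as follows. At an adjusted p under 0.05 by limma, 0 of 10 members passed in the average over regions (0.0339% of all genes did), 0 in caudal cortex (0% of all genes), 0 in rostral cortex (0%) and 0 for the difference of the KO effects (0%). Without adjustment, 2 of 10 had p under 0.05 in the average (7.53% of all genes), 2 in caudal cortex (4.06%), 3 in rostral cortex (6.69%) and 0 for the difference (3.04%). The genotypes were free of overlap for 2 of 10 genes in caudal cortex (7.52% of all genes) and for 1 in rostral cortex (13%). No member did so in both regions in 1 direction (1.18% of all genes). The 2 genes of the average were Ccnd1 and Cdkn1c, joined by Cdkn1b in rostral cortex.

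Other genes of the G1 phase and of S phase entry did not move as a group. Of 44 such genes listed 41 were tested, and averaged over regions 20 were above and 21 below 0 in KO cortex, with a median of -0.01. None passed, and none had an unadjusted p under 0.05. Those of smallest p were the cyclin G gene Ccng2 (0.23 ± 0.11), Fzr1, an activator of the anaphase-promoting complex that holds cells in G1 (-0.24 ± 0.12), and the retinoblastoma gene Rb1 (0.15 ± 0.07), each with an adjusted p between 0.68 and 0.70. In caudal cortex Tfdp2, an E2F partner, had the smallest p (0.22 ± 0.10), and in rostral cortex E2f5 (0.27 ± 0.10) and the cyclin H gene Ccnh (0.27 ± 0.10) did. Of 10 tested p53 targets none passed, with a median of 0.06. G2 and M phase genes, a readout of dividing cells, were lower in KO cortex for 15 of 17 members with a median of -0.07, and none passed. Basal progenitor genes were lower for 11 of 14, of which 2 passed (Neurod4 and Eomes), and young neuron genes were higher for 10 of 14, of which none passed. Genes of the cortical hem, a source of Wnt and BMP signals beside the cortex, were lower in KO for 8 of 11 with a median of -0.50, and none passed. In caudal cortex 9 of these 11 were lower with a median of -0.74, and 3 had an unadjusted p under 0.05. Their mean log2 signal ran from 4.85 to 6.63 in caudal KO against 5.74 to 6.83 in caudal WT, and from 5.71 to 6.41 in rostral KO against 5.99 to 6.48 in rostral WT. Ganglionic eminence genes were higher in KO for 9 of 11 with a median of 0.17, and meningeal genes for 5 of 7 (7 of 7 in rostral cortex), and none passed. Of 3 tested choroid plexus genes, 3 were lower in caudal KO (median -1.41) and 2 were higher in rostral KO (median 0.53), and none passed. Their mean was 7.35 on caudal WT 6, against 4.38 and 2.94 on caudal WT 4 and 14. The part of these tissues in the KO effects of Ccnd1, Cdkn1c and Cdkn1b was not tested. In bulk tissue fewer cells of a type and less RNA per cell cannot be told apart.

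Between the regions 3 members differed past the threshold. Cdkn1c, Ccnd1 and Cdkn2d were lower in caudal than in rostral cortex in both genotypes. On the probe sets that stand for them the regional groups did not overlap in either genotype. Each gene missed the adjusted threshold in WT and in KO taken alone. Averaged over the genotypes, a comparison added after these values were seen, Cdkn1c fell by 0.54 ± 0.10 on the log2 scale (0.69-fold), Ccnd1 fell by 0.37 ± 0.07 (0.77-fold) and Cdkn2d fell by 0.27 ± 0.06 (0.83-fold), with limma adjusted p = 0.0060, 0.0096 and 0.034. The caudal piece holds the region from which occipital areas arise, and the rostral piece that of frontal areas.

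For Cdkn1c all 3 caudal KO arrays (10.32 to 10.45) lay below all 3 rostral KO arrays (10.59 to 11.24), and all 3 caudal WT arrays (9.87 to 10.19) below all 3 rostral WT arrays (10.53 to 10.72). The caudal minus rostral difference was -0.52 ± 0.14 in KO (adjusted p = 0.092) and -0.55 ± 0.14 in WT (adjusted p = 0.080). The 4 group means fell in the order rostral KO (10.91 ± 0.32 SD, n = 3), rostral WT (10.61 ± 0.10), caudal KO (10.38 ± 0.07) and caudal WT (10.06 ± 0.17). Neighbouring groups in this order did not overlap, except rostral KO and rostral WT. Without rostral KO 15, the array with meningeal signal, the averaged regional difference was -0.45 ± 0.08 (adjusted p = 0.0078).

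Ccnd1 kept the same order of groups, with 9.97 ± 0.11 in rostral KO, 9.73 ± 0.18 in rostral WT, 9.68 ± 0.05 in caudal KO and 9.27 ± 0.10 in caudal WT (SD, n = 3 each). Caudal KO and rostral WT overlapped and differed by 0.04. The caudal minus rostral difference was -0.28 ± 0.10 in KO (adjusted p = 0.24) and -0.46 ± 0.10 in WT (adjusted p = 0.053). The regional call and the lack of overlap between regions rested on the probe set of highest signal, 1417420_at. On 1417419_at and 1448698_at the regional groups overlapped in both genotypes. The other 2 probe sets of Ccnd1 differed by -0.21 ± 0.14 and -0.17 ± 0.11 averaged over genotypes, both with adjusted p = 0.53 or 0.54, and the mean of all 3 did not pass (-0.25 ± 0.09, adjusted p = 0.18).

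Cdkn2d had the smallest standard error of the 10 genes. It read 9.39, 9.52 and 9.43 in caudal KO against 9.70, 9.76 and 9.67 in rostral KO. In WT it read 9.42, 9.54 and 9.25 caudally against 9.71, 9.73 and 9.58 rostrally. The WT groups came close, with caudal WT 6 at 9.54 just under rostral WT 16 at 9.58. The differences were -0.26 ± 0.09 in KO (adjusted p = 0.23) and -0.27 ± 0.09 in WT (adjusted p = 0.25). The averaged call was lost without any one of 9 arrays, namely caudal KO 1, 2 or 13, caudal WT 14, rostral KO 7, 8 or 15 and rostral WT 10 or 12, with adjusted p between 0.051 and 0.097 and a difference between -0.28 and -0.23.

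The remaining members did not pass between regions. Ccnd2 on its main probe set differed by -0.24 ± 0.11 in KO and -0.22 ± 0.11 in WT, or -0.23 ± 0.08 averaged (adjusted p = 0.12). Its 3 caudal KO arrays lay below its 3 rostral KO arrays, of which KO 15 at 12.75 stood highest. Without KO 15, the array with meningeal signal, the difference in KO was -0.11 ± 0.09 (adjusted p = 0.70) and the averaged one -0.17 ± 0.06 (adjusted p = 0.20). The WT arrays overlapped through caudal WT 4 at 12.51, without which the averaged difference passed (-0.29 ± 0.07, adjusted p = 0.028). The other 6 probe sets of Ccnd2 ranged from -0.18 to 0.05 in the average. Cdkn1b differed by -0.47 ± 0.21 in KO and -0.04 ± 0.21 in WT on its brighter probe set. Its second probe set pointed the other way, by 0.25 ± 0.27 in KO and 0.22 ± 0.27 in WT, and the mean of both gave -0.11 ± 0.18 in KO. Leaving out caudal KO 2, the highest of its group, gave -0.74 ± 0.18 in KO on the brighter probe set (adjusted p = 0.13). Cdkn1a differed by -0.40 ± 0.26 in KO and -0.31 ± 0.26 in WT. Cdk4 (-0.12 ± 0.08), Ccnd3 (-0.05 ± 0.17), Cdk6 (-0.03 ± 0.19) and Cdkn2c (0.01 ± 0.10) lay near 0 in the average. Cdk6 and Cdkn2c had opposite signs in KO (0.20 ± 0.27 and 0.16 ± 0.15) and in WT (-0.26 ± 0.27 and -0.14 ± 0.15). A second Ccnd3 probe set, 1444323_at, gave -0.80 ± 0.38 in the average (limma adjusted p = 0.35 in the fit of all probe sets). Its caudal WT arrays all lay at or below 5.21.

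**Figure D3:**
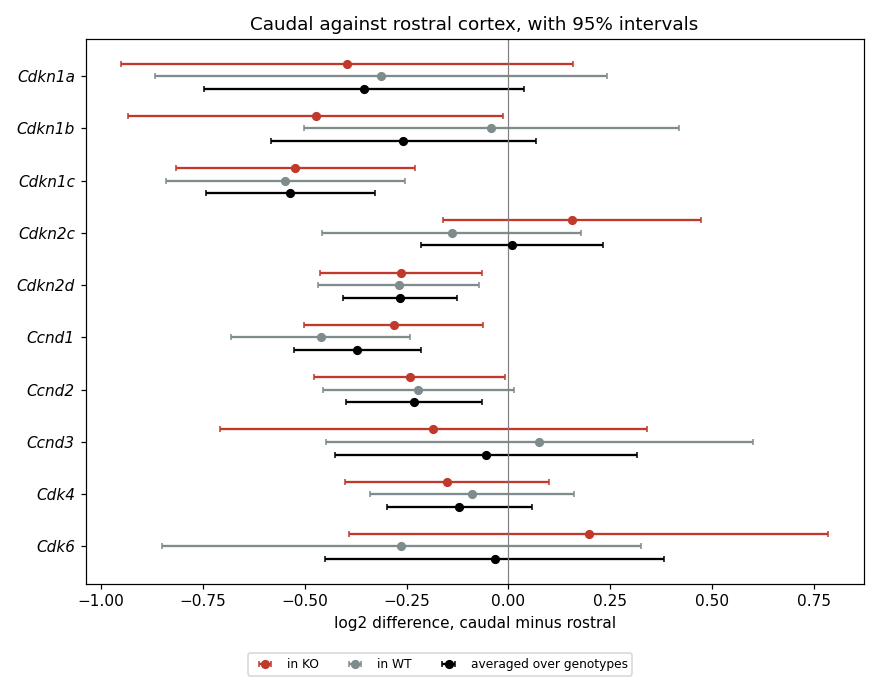
Log2 difference of caudal minus rostral cortex (horizontal axis) for each of the 10 genes in KO, in WT and averaged over genotypes, with 95% intervals from the limma fit. Cdkn1c (-0.74 to -0.33), Ccnd1 (-0.53 to -0.22) and Cdkn2d (-0.41 to -0.13) have averaged intervals below 0 and passed. The interval of Ccnd2 (-0.40 to -0.07) also lies below 0, and this gene did not pass.

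In the regional comparisons 0 of 10 members passed in KO (0.95% of all genes did) and 0 of 10 in WT (0.942%), while 3 of 10 passed in the average over genotypes (4.46%). Without adjustment, 5 of 10 had p under 0.05 in KO (13.2% of all genes), 3 in WT (10.4%) and 4 in the average (17.3%). The regional groups did not overlap for 4 of 10 genes in KO (20.9% of all genes) and for 3 in WT (13.9%), and for 3 in both genotypes in the same direction (4.79%). The median difference of the 10 genes was -0.24 averaged over genotypes, with 9 of 10 below 0, against a median of -0.02 over all genes. The KO and WT comparisons use different arrays, and the averaged one uses all of them. The difference between the regional effects of KO and WT is the same contrast as the difference of the KO effects given above, in which no member passed.

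**Figure D4:**
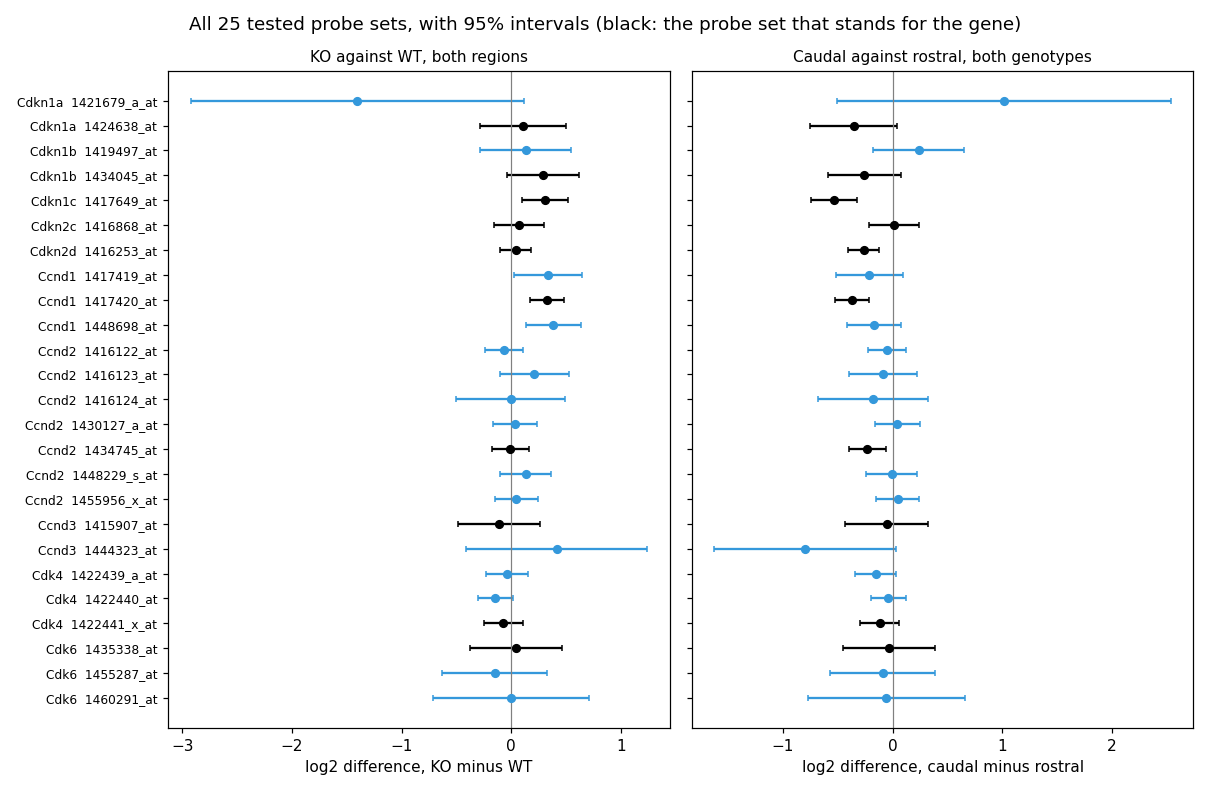
Log2 differences (horizontal axes) of the 25 tested probe sets of the 10 genes with 95% intervals, KO minus WT averaged over regions on the left and caudal minus rostral averaged over genotypes on the right. Black points are the probe sets that stand for their gene and blue points the others. The 3 Ccnd1 probe sets lie close together in the KO effect (0.33 to 0.39) and farther apart in the regional one (-0.37 to -0.17). The 2 probe sets of Cdkn1a have estimates of opposite sign in both, with intervals that include 0. One of them, 1421679_a_at, lay at or below 5.21 on all 3 rostral KO arrays, and its fold is not used.

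Genes around these in G1 mostly had estimates below 0 between regions. Their share of small p-values was near that of all genes in the average over genotypes, and above it in KO. Of the 41 tested genes of G1 and S phase entry 33 were lower in caudal cortex averaged over genotypes. Their median was -0.12, against -0.02 over all genes. Without adjustment 7 had p under 0.05 by limma in the average (17.1%, against 17.3% of all genes). In KO the share was 22.0%, against 13.2% of all genes, and in WT it was 12.2%, against 10.4%. After adjustment 1 passed in the average, while 4.46% of all genes did. The gene that passed was Myc, the transcription factor gene that drives growth and G1 progression. Myc read 7.01, 7.04 and 6.92 in caudal KO against 7.69, 7.70 and 7.65 in rostral KO. In WT it read 6.90, 7.15 and 7.06 caudally against 7.66, 7.64 and 7.61 rostrally. Its caudal arrays lay below its rostral arrays in both genotypes, and it passed in KO (-0.69 ± 0.11, adjusted p = 0.015), in WT (-0.60 ± 0.11, adjusted p = 0.027) and in the average (-0.65 ± 0.08, adjusted p = 0.00063). Of 10 tested p53 targets 1 passed in the average, Sesn1, a stress-response gene (-0.30 ± 0.06, adjusted p = 0.012), and 5 were below 0. G2 and M phase genes were lower in caudal cortex for 17 of 17, with a median of -0.20, and none passed. Without adjustment 3 of them had p under 0.05 (17.6%).

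Marker transcripts of other tissues and of cell types also differed between the regions. Of 15 ganglionic eminence and interneuron genes listed 11 were tested, 10 were lower in caudal cortex and 5 passed (Isl1, Dlx2, Six3, Dlx1 and Dlx5), with a median of -1.06. Their mean log2 signal ran from 5.38 to 6.09 in caudal KO against 6.62 to 7.99 in rostral KO, and from 5.29 to 6.14 in caudal WT against 6.73 to 7.32 in rostral WT. Meningeal genes were lower caudally for 6 of 7, of which Zic1 passed (-2.91 ± 0.26), and of 3 tested choroid plexus genes Otx2 passed (-5.30 ± 1.00) and the other 2 were above 0. The choroid plexus mean was 7.35 on caudal WT 6, against 2.44 to 4.38 on the other caudal arrays and 5.21 to 6.37 on the rostral arrays. Basal progenitor genes were lower for 8 of 14, of which Insm1 and Tox3 passed, and young neuron genes for 7 of 14, of which Tbr1 passed. Microglial genes were lower for 7 of 7, cortical hem genes for 8 of 11, vascular genes for 8 of 13 and red blood cell genes for 4 of 5, and none of these passed. Radial glia genes were split 7 to 7 with a median of -0.02, and Pax6, which is graded along this axis, was the 1 that passed (-0.42 ± 0.06, adjusted p = 0.0017). Progenitors of the ganglionic eminence divide and express cyclins and CDK inhibitors of their own. The part of this tissue in the regional differences of Cdkn1c, Ccnd1, Cdkn2d and Myc was not tested.

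**Figure D5:**
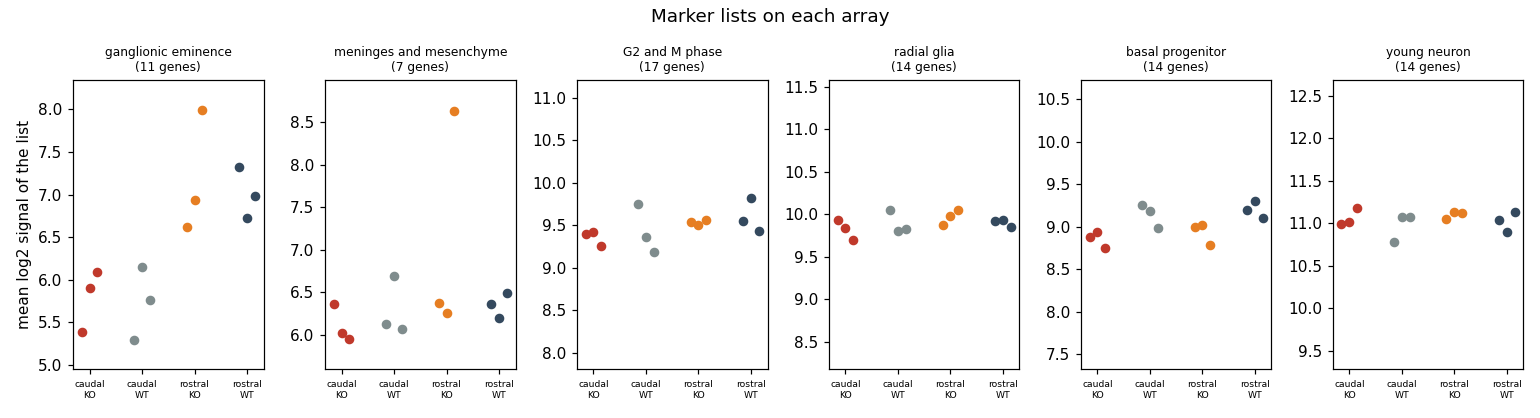
Mean log2 signal (vertical axis, the same span in all panels) over the tested genes of 6 marker lists, 1 point per array in order of animal number. Ganglionic eminence genes lie between 6.62 and 7.99 on rostral arrays and between 5.29 and 6.14 on caudal arrays, meningeal genes reach 8.64 on rostral KO 15 alone.

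The genes whose values followed Ccnd1 most closely over the 12 arrays were Scgn, which encodes a calcium-binding protein, Ptn, which encodes the growth factor pleiotrophin, Robo1, a guidance receptor gene, Guf1 and Pcdh18. Their Pearson correlations with its main probe set across arrays were 0.95, 0.90, 0.90, 0.90 and 0.89. These genes were picked as the highest of 11775 others on 12 arrays that fall into 4 groups, so the values describe a shared pattern of groups and carry no test. Scgn and Ptn had KO effects of 0.61 and 0.51 averaged over regions.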

How the data were processed

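Transcript levels were measured on 12 arrays, 3 in each of 4 groups; per the labels' protocols, the input was 400 ng RNA. The authors deposited 1 log2 value per probe set and array (45101 probe sets). A log2 scale was inferred from their range, -3.81 to 14.02, and the methods of background correction, normalisation and summarisation are not given in the sources used here. Values were used as deposited.

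Probe sets were named with the platform annotation: 34958 named 1 gene, and 932 naming several and 9211 naming none were not used. A probe set was tested when it exceeded 5.21, the median of the table, on at least 3 arrays (21288 probe sets), and each of 11785 genes was represented by its tested probe set of highest mean. A group with all arrays at or below that value is called dim. limma 3.58.1 in R 4.3.3 was fitted over all arrays with 1 mean per group, using trended variance moderation (residual df 8, prior df 5.37). Two-sided p-values received Benjamini-Hochberg adjustment across the genes tested, and a second fit covered all tested probe sets. With 3 arrays per group the number of arrays limits the precision. The fit was checked on simulated data. Members and lists were chosen with earlier results of these data known. All members were to be named, with Tfap2c, the listed genes past the threshold or of smallest p in each comparison, and the 5 genes most like the member of smallest p in KO against WT averaged over regions and in caudal against rostral WT (Ccnd1 in both of these). The average over genotypes was added after the data were seen.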

Additional observations from a re-analysis of the deposited data

How the results depend on the processing

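No paired analysis was run, because the groups share no animal number. Whether a caudal and a rostral piece came from the same embryo is not stated. Each region held 1 Xist-high WT array. If pieces did share an embryo, the fits here treated them as independent arrays, in the regional comparisons and in the averages over regions. In KO against WT no member passed in any comparison under any alternative (24 or 25 each, with quantile normalisation, floored values, other filters, other ways to combine probe sets, other moderation, weighted arrays, a fit of the compared groups alone, a block for animals 13 to 16, the Xist-high arrays left out or as a covariate, and each array left out). The KO effect averaged over regions ranged from 0.28 to 0.38 for Ccnd1 (adjusted p 0.082, with the block, to 0.55) and from 0.22 to 0.39 for Cdkn1c (0.24 to 0.77). In caudal against rostral WT, 1 member passed with floored values, the filter at the 75th percentile, robust moderation, the block and the Xist covariate, each time Ccnd1 (adjusted p = 0.049, 0.049, 0.049, 0.028 and 0.050). Leaving out single arrays gave 0 to 1 members there, Cdkn1c without rostral KO 7 (0.046) or 15 (0.028) and Ccnd1 without rostral WT 16 (0.036). In KO, 1 member passed with array weights, Cdkn1c (0.028), and 0 to 1 with single arrays left out, Cdkn1c without rostral KO 7 (0.030). The average over genotypes gave 2 to 4 members. Cdkn1c passed in all 24 alternatives (adjusted p 0.0020 to 0.030), Ccnd1 in 23 and Cdkn2d in 13, which besides the 9 arrays named was lost without an intensity trend (0.059) and without animals 6 and 12 (0.051). Counts over all genes moved more. Averaged KO against WT gave 4 genes, 20 with the block, 10 with array weights, 2 with floored values, no trend or the Xist covariate, 1 without animals 6 and 12, and 1 to 4 without single arrays. Caudal KO against WT gave 0, or 4 with the block and 1 without caudal KO 1, caudal WT 4, caudal WT 14 or rostral KO 8, and rostral 0, or 4 with floored values, 2 with array weights and 1 without rostral KO 8. The difference gave 1 with the block. Caudal against rostral gave 111 genes in WT (22 to 257) and 112 in KO (20 to 637), and 526 in the average (926 with the block, 334 without rostral KO 8). The cause of these shifts was not tested.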
